A study of Mus musculus with 2 samples.

Results

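The genes described here are 10 transcription factor genes that act in the hair matrix, hair shaft, inner root sheath and sebaceous gland, namely Foxn1, Msx1, Msx2, Lef1, Dlx2, Dlx3, Gata3, Ovol1, Cux1 and Prdm1. They were taken by symbol, and all 10 are among the 23233 genes of the deposited expression table. The study stained cells of ventral skin from 7-day-old C57BL/6 mice with an antibody against ZIP10, a zinc importer encoded by Slc39a10. Flow cytometry then gave a ZIP10-positive (ZIP10+) and a ZIP10-negative (ZIP10-) population, and polyadenylated RNA of each was sequenced as 1 library. Both groups share strain, age, tissue, dissociation and staining, and the series' design text calls the mice wild type. The titles speak of hair follicles and the protocol of a suspension of ventral skin, without a gate on markers of follicle cells. The number of animals is not given in the sources used here. With 1 library per group there is no replicate and no test, and every difference below describes these libraries.

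The hair matrix is the pool of dividing keratinocytes that surrounds the dermal papilla at the base of a growing follicle, and its daughter cells form the hair shaft and the inner root sheath. WNT signals act there through beta-catenin and its DNA-binding partner LEF1, and BMP signals act upstream of the homeodomain factors of the MSX family. FOXN1, the factor mutated in nude mice, MSX2 and DLX3 are needed for normal hair shafts, while GATA3 and CUX1 are known for the inner root sheath. OVOL1 is a zinc-finger repressor of transcription that acts in epidermal and hair differentiation. PRDM1, also called BLIMP1, is known for sebaceous and terminally differentiating epidermal cells.

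The promoters of Msx2, Msx1 and Foxn1 are shown because Msx2 had the highest and Foxn1 the lowest ratio between the libraries among the 10 genes, and Msx1 is the paralog of Msx2. Each window is RefSeq sequence of GRCm38.p6, 250 bases before to 50 after the annotated start, 5′ to 3′ on the strand of the gene. Capitals mark TAATT, a core bound by homeodomain proteins such as MSX and DLX, and GACGC, a core bound by FOXN1, on either strand. The Msx2 window is chr13:53472731-53473030, the Msx1 window chr5:37824536-37824835 and the Foxn1 window chr11:78386559-78386858, all on the minus strand.
Msx2: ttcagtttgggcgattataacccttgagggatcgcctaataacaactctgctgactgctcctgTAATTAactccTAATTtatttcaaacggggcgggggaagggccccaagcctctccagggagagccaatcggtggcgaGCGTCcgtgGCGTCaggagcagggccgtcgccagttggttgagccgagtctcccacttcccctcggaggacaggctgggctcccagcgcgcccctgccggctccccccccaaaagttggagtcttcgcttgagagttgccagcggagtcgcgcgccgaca
Msx1: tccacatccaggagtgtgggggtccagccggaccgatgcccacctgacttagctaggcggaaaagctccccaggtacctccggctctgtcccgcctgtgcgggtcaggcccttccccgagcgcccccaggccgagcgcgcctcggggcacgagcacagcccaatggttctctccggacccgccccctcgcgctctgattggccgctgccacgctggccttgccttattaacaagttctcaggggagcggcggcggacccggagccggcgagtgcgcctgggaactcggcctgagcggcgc
Foxn1: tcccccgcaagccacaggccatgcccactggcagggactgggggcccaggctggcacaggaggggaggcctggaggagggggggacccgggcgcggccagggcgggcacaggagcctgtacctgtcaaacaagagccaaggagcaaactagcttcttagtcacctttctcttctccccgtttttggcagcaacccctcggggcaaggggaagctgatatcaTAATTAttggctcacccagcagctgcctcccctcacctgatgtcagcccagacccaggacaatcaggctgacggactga
In the Msx2 window TAATT matched 3 times, of which 2 are the overlapping strands of TAATTA, and GACGC matched 2 times. In the Foxn1 window TAATT matched 2 times, which are the overlapping strands of 1 TAATTA beginning 29 bases before the start, and GACGC did not match. The Msx1 window held neither core. Over all 32851 windows of this length in the table, 27.0% held TAATT and 27.2% GACGC. The share of G and C bases was 61.0% in the Msx2, 70.0% in the Msx1 and 62.7% in the Foxn1 window. The median over all windows was 52.7%, so these shares are not a background matched for base content.

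Further motifs were searched in the 11 windows of the 8 genes with an entry, which are Foxn1, Msx1, Msx2, Lef1, Dlx2, Gata3, Cux1 and Prdm1. CTTTGA or CTTTGT, cores bound by LEF/TCF factors and present in 31.2% of all windows, matched in 1 of the 4 Lef1 windows, with 3 matches, and in no window of the other 7 genes. AGATAA or TGATAA, bound by GATA factors and present in 18.6% of all windows, matched in that same Lef1 window and in the Dlx2 window. GAAAGT, bound by PRDM1 and present in 14.3%, matched in the Dlx2 and Cux1 windows and in 1 Lef1 window, and CCGTTA, bound by OVOL factors and present in 2.76%, matched in none of the 11. GACGC also matched in the Gata3 window and in 2 overlapping Lef1 windows, and TAATT in the Lef1 window with the LEF/TCF matches. Shares over all windows are not matched for base content here either. Matches describe letters in these windows and are no evidence of binding.

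Values are RPKM, which are reads per length of transcript and per size of library. The median gene at 1 RPKM or more in both libraries had a ratio of 1.97 between the ZIP10+ and the ZIP10- library, a log2 shift of 0.98, so each gene is given as deposited and relative to this median gene. The share of globin genes in the summed RPKM was 3.46% in the ZIP10+ and 59.4% in the ZIP10- library. About 2.78e+06 reads in the ZIP10+ and 2.71e+06 reads in the ZIP10- library were estimated, and intervals below are exact 95% intervals from read numbers at that depth, covering counting error only. Slc39a10 stood at 49.4 RPKM in the ZIP10+ and 11.1 RPKM in the ZIP10- library. In such bulk libraries fewer cells of a type and less RNA per cell cannot be told apart.

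Most of the 10 genes had higher RPKM values in ZIP10+ cells, as did most measured genes, whose median log2 ratio was 0.87. Relative to the median gene 6 of the 10 lay below it. By definition, as many of the genes at 1 RPKM or more in both libraries lie below the median gene as above it. Neither count therefore sets the 10 genes apart. Msx2, Gata3, Dlx2 and Msx1, which are 4 of the 10, were 2-fold or more higher as deposited on the log2(RPKM + 1) scale, and none was 2-fold or more lower. Of all 12249 measured genes, which reached 1 RPKM in at least 1 library, 44.1% were that much higher with the pseudocount of 1 and 3.55% that much lower. With a pseudocount of 5 only Msx2, which is 1 of the 10, was that much higher, against 22.7% of all genes, and none lower, against 0.849%. Relative to the median gene none of the 10 was 2-fold or more higher, against 14.7% of all genes, and 2 were 2-fold or more lower, Foxn1 and Prdm1, against 11.4% of all genes. With a pseudocount of 5 none was higher or lower by that much, against 5.61% and 3.01% of all genes. The median log2 ratio of the 10 genes was 0.39 as deposited, beside 0.87 over all genes, and -0.45 relative to the median gene, beside 0.094 over all genes. All 10 genes reached 1 RPKM in a library and 9 in both. When libraries were scaled to the sum of all but the 50 most abundant genes, or without globin genes and Rn45s, 0 of the 10 were 2-fold or more higher and 4 lower. Of all genes 9.74% were higher and 17.5% lower by that much under the first of these scalings, and 8.99% higher and 19.2% lower under the other. Prdm1 passed the filter through the ZIP10- library alone.

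**Figure D1:**
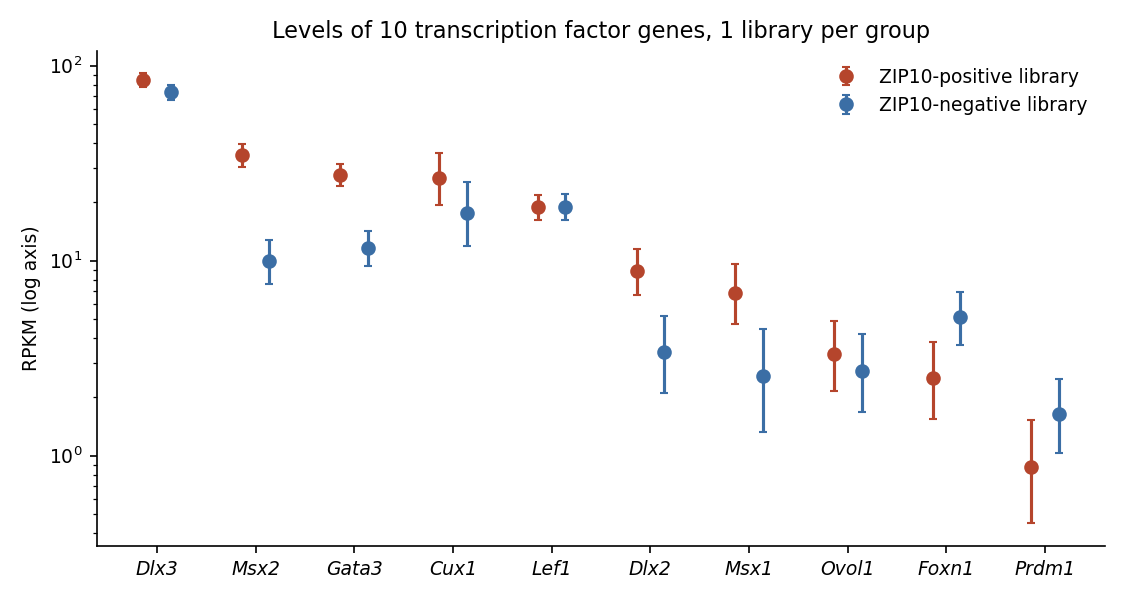
RPKM (log axis) of the 10 genes in the ZIP10+ (red, left point of each pair) and ZIP10- library (blue, right point), ordered by the ZIP10+ value. Bars are exact 95% Poisson intervals that cover counting error only. The intervals of Msx2, Gata3, Dlx2 and Msx1 do not overlap between the libraries. The share of all genes with intervals apart was not computed, and the median gene itself had a ratio of 1.97. Cux1 has the bars of its shortest coding transcript, which are its widest, so its overlap depends on that choice. Foxn1, Prdm1 and, by a small margin, Lef1 have the higher point in ZIP10- cells.

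Among the homeodomain genes of the matrix, both MSX genes were higher in ZIP10+ cells. Msx2, a BMP-responsive factor of matrix and shaft, stood at 34.8 RPKM (interval 30.4 to 39.8) in the ZIP10+ and 9.96 RPKM (interval 7.62 to 12.8) in the ZIP10- library. This is a ratio of 3.50 (interval 2.61 to 4.71), and relative to the median gene it was 1.77 (interval 1.33 to 2.39). Its level lay at the 83.8th percentile of measured genes in ZIP10+ and at the 75.7th in ZIP10- cells, and its ratio at the 84.2nd percentile. It ranked highest among the 10 genes by ratio. Msx1, which acts beside Msx2 in skin appendages, stood at 6.86 RPKM in the ZIP10+ and 2.56 RPKM in the ZIP10- library. The ratio of 2.68 (interval 1.35 to 5.70) rested on about 33 reads in ZIP10+ and 12 reads in ZIP10- cells, and relative to the median gene it was 1.36, with an interval of 0.685 to 2.89 that includes equality. Under the scalings by all but the 50 most abundant genes and without globin genes and Rn45s, the log2 ratios stayed above 0, at 0.46 and 0.39 for Msx2 and at 0.080 and 0.023 for Msx1.

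The DLX genes divided. Dlx3, a factor of shaft and sheath differentiation, was the highest of the 10 genes in both libraries, at 84.2 RPKM (interval 77.4 to 91.5) in ZIP10+ and 73.0 RPKM (interval 66.6 to 79.9) in ZIP10- cells. Its ratio was 1.15 (interval 1.02 to 1.31), which lies at 0.585 relative to the median gene (interval 0.517 to 0.663). Dlx2, a related factor, stood at 8.86 RPKM in ZIP10+ and 3.41 RPKM in ZIP10- cells, a ratio of 2.60 (interval 1.55 to 4.52) on about 56 reads in ZIP10+ and 21 reads in ZIP10- cells. Relative to the median gene it was 1.32, and that interval, 0.787 to 2.30, includes equality. Its log2 ratio turned to -0.013 with scaling without globin genes and Rn45s. Within a library the Dlx3 value was 9.50 times that of Dlx2 in ZIP10+ and 21.4 times in ZIP10- cells. Such a ratio of genes is free of library scaling, and the quotient of these was 0.444 (approximate 95% counting interval 0.265 to 0.743).

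Of the 10 genes Foxn1 lay furthest below the median gene. It stood at 2.50 RPKM (interval 1.55 to 3.82) in the ZIP10+ and 5.12 RPKM (interval 3.69 to 6.93) in the ZIP10- library, on about 21 reads in ZIP10+ and 42 reads in ZIP10- cells. These level intervals overlap slightly, while the interval of the ratio, 0.488 (0.274 to 0.842), lies below equality. This ratio uses no pseudocount; with 1 RPKM added to both levels the log2 ratio was -0.81, so Foxn1 was not counted as 2-fold lower as deposited. Relative to the median gene the ratio was 0.247 (interval 0.139 to 0.427). Only 4.78% of measured genes had a lower log2 ratio. Its level lay at the 23.3rd percentile of measured genes in ZIP10+ and at the 59.9th in ZIP10- cells. In terms of ratios within a library, Msx2 was 13.9 times Foxn1 in ZIP10+ and 1.94 times Foxn1 in ZIP10- cells. The quotient, 7.17 (approximate interval 3.95 to 13.0), is the whole span of the 10 genes and does not depend on scaling. Since these genes have the highest and lowest ratios of the 10, a quotient above 1 was fixed. The interval takes no account of this choice. Dlx3 was 33.7 times Foxn1 in ZIP10+ and 14.2 times in ZIP10- cells.

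Lef1, the WNT effector of matrix and precortex, had nearly equal values, 18.8 RPKM (interval 16.1 to 21.8) in ZIP10+ and 19.0 RPKM (interval 16.2 to 22.0) in ZIP10- cells. Its ratio of 0.992 (interval 0.800 to 1.23) became 0.504 (interval 0.406 to 0.624) relative to the median gene. By level Lef1 held rank 5 of the 10 genes in ZIP10+ and rank 2 in ZIP10- cells. Msx2 was 1.85 times Lef1 in ZIP10+ and 0.526 times Lef1 in ZIP10- cells, so the order of these genes differed between the libraries.

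**Figure D2:**
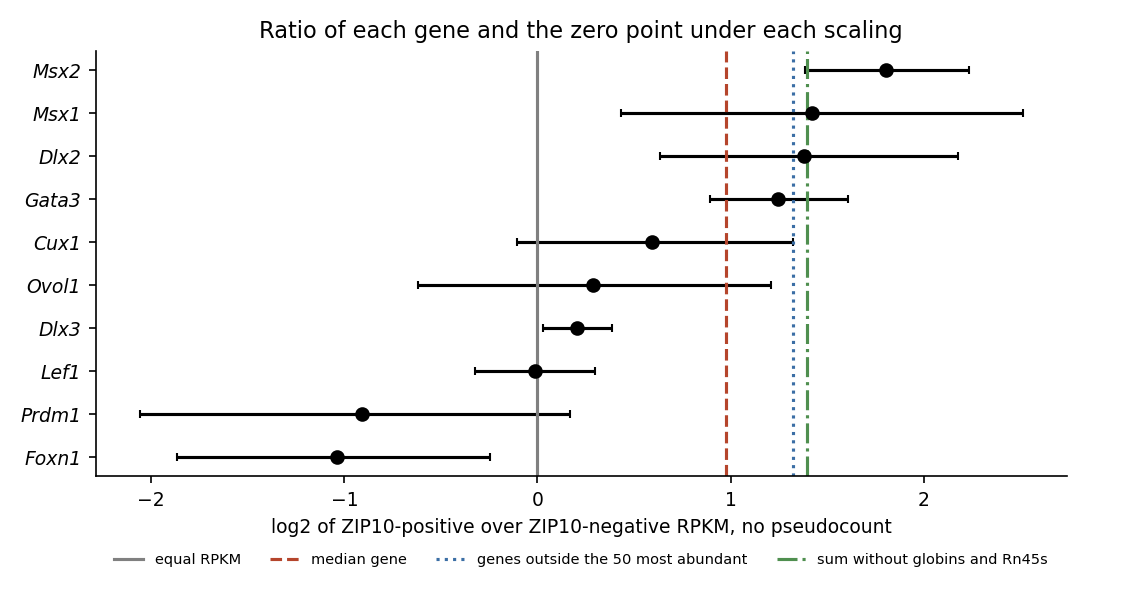
Log2 ratio of ZIP10+ over ZIP10- RPKM for each of the 10 genes, without a pseudocount, with exact 95% counting intervals as bars. Vertical lines mark equal RPKM, the median gene at 0.98, and the zero points of 2 further scalings at 1.32 and 1.39. The points run from -1.04 for Foxn1 to 1.81 for Msx2, and only the points of Msx2 and Msx1 lie right of all 4 lines.

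Of the inner root sheath factors, Gata3 was the higher by ratio. Gata3 stood at 27.5 RPKM (interval 24.1 to 31.3) in ZIP10+ and 11.6 RPKM (interval 9.40 to 14.2) in ZIP10- cells, and these intervals are apart. The ratio was 2.37 (interval 1.86 to 3.04), or 1.20 relative to the median gene (interval 0.944 to 1.54). Its log2 ratio turned to -0.075 when scaled to all but the 50 most abundant genes and to -0.14 without globin genes and Rn45s. Cux1, whose locus also encodes the Golgi protein CASP, stood at 26.6 RPKM in ZIP10+ and 17.7 RPKM in ZIP10- cells, and a value per symbol does not separate these products. Its ratio was 1.51. The interval was 0.929 to 2.50 with reads counted on the shortest coding transcript of 805 bases and 1.36 to 1.67 on the longest of 12862 bases. Relative to the median gene Cux1 was 0.764.

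The factors known from sebaceous and terminally differentiating cells were low. Ovol1 stood at 3.33 RPKM (interval 2.15 to 4.92) in ZIP10+ and 2.73 RPKM (interval 1.67 to 4.22) in ZIP10- cells. Its ratio of 1.22 (interval 0.650 to 2.32) was not distinguishable from equality or from the median gene at this depth. Prdm1 was the lowest of the 10 genes in both libraries, at 0.872 RPKM (interval 0.451 to 1.52) in ZIP10+ and 1.64 RPKM (interval 1.03 to 2.48) in ZIP10- cells. About 12 reads in ZIP10+ and 22 reads in ZIP10- cells lay behind these values, and the ratio of 0.532 had an interval of 0.240 to 1.12 that includes equality. Relative to the median gene it was 0.270 (interval 0.122 to 0.570).

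In order of level in ZIP10+ cells the genes ran Dlx3, Msx2, Gata3, Cux1, Lef1, Dlx2, Msx1, Ovol1, Foxn1 and Prdm1. Counting intervals of neighbours in this order were apart between Dlx3 and Msx2, between Lef1 and Dlx2, and between Foxn1 and Prdm1, and overlapped elsewhere. In ZIP10- cells the order was Dlx3, Lef1, Cux1, Gata3, Msx2, Foxn1, Dlx2, Ovol1, Msx1 and Prdm1. There neighbours were apart between Dlx3 and Lef1 and between Msx2 and Foxn1. In both orders Cux1 entered with reads counted on its shortest coding transcript, about 45 in ZIP10+ and 29 in ZIP10- cells. The longest would give about 936 and 606 reads and narrower intervals, so the overlaps of Cux1 with its neighbours depend on this choice. Dlx3 and Prdm1 thus kept the ends of the order in both libraries, and Foxn1 held rank 9 in ZIP10+ and rank 6 in ZIP10- cells.

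**Figure D3:**
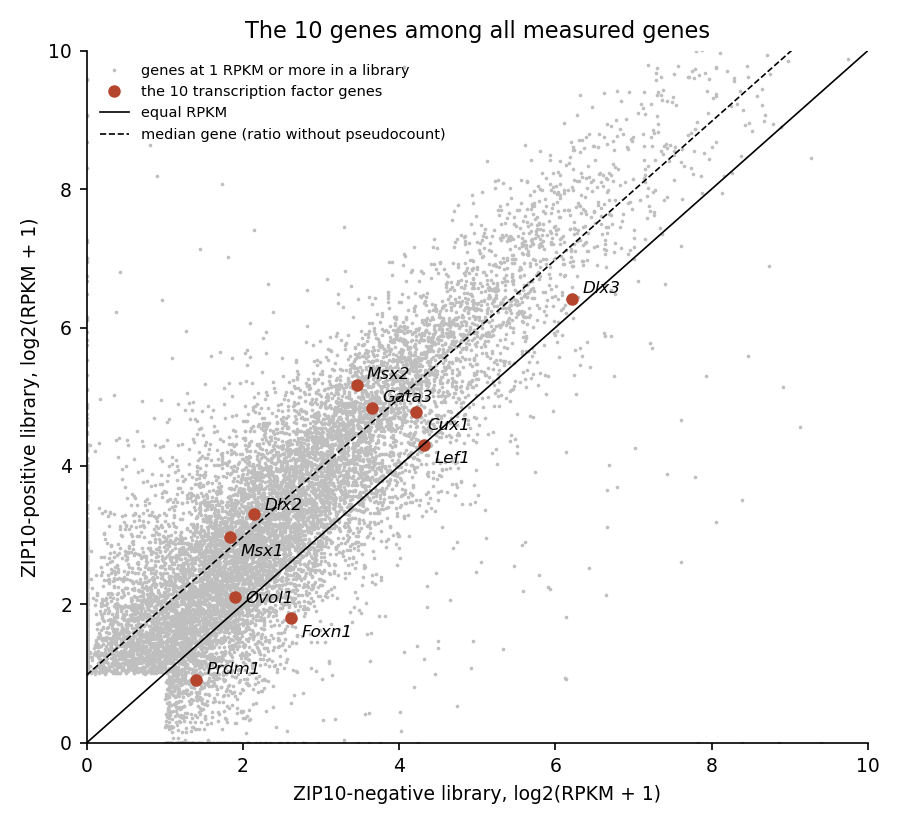
Log2(RPKM + 1) in the ZIP10+ library (vertical axis) against the ZIP10- library (horizontal axis) for measured genes (grey, cropped at 10 on both axes) and the 10 transcription factor genes (red). The solid line marks equal RPKM and the dashed line the median gene. Msx2 lies above the dashed line, Lef1 on the solid line, and Foxn1 and Prdm1 below it.

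Close relatives of the 10 genes show which member of each family carried its RNA. Of 24 listed paralogs 23 were in the table and 13 reached 1 RPKM in a library, with 3 of them 2-fold or more higher and 1 lower as deposited. Against the median gene 1 was higher and 4 were lower by that much. Tcf7l2, Gata2 and Ovol2, the 3 counted as higher before this scaling, passed the filter through the ZIP10+ library alone. Their direction in the deposited values therefore follows from the filter. Tcf7, the lower gene in those values, reached 1 RPKM in both libraries. Gata2 was also the gene counted above the median gene. Foxn2, among the 4 below it, passed through the ZIP10- library alone. Dlx3 made up 85.7% of the summed RPKM of the DLX family in ZIP10+ and 84.9% in ZIP10- cells. Msx2 made up 83.5% of the MSX sum in ZIP10+ and 79.6% in ZIP10- cells, and Gata3 made up 85.6% of the GATA sum in ZIP10+ and 95.0% in ZIP10- cells. Cux1 was the only CUX gene above 0, with Cux2 listed at 0 in both libraries. Msx3, Dlx5, Dlx6, Foxn4, Gata1, Gata4 and Gata5 were also listed at 0 in both, and such a 0 may also be a failed estimate.

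The make-up of the LEF/TCF family differed between the libraries. Lef1 held 55.0% of the family's summed RPKM in ZIP10+ and 26.9% in ZIP10- cells. Tcf7, the family member known for T cells, stood at 3.56 RPKM in ZIP10+ and 46.8 RPKM in ZIP10- cells, and held 10.4% of the family in the ZIP10+ and 66.5% in the ZIP10- library. Tcf7l1, known for follicle stem cells, stood at 9.34 RPKM in ZIP10+ and 4.21 RPKM in ZIP10- cells, and Tcf7l2 at 2.52 RPKM in ZIP10+ and 0.484 RPKM in ZIP10- cells. The summed family stood at 34.2 RPKM in ZIP10+ and 70.5 RPKM in ZIP10- cells.

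T cell markers moved with Tcf7, and Lef1, Gata3, Tcf7 and Prdm1 are also known to be expressed in T cells. Of 10 T cell markers 9 were measured, and 7 were 2-fold or more lower in ZIP10+ cells as deposited. All 9 lay below equality, but Cd8a and Il7r passed the filter through the ZIP10- library alone, which fixed this for them. Neither of these genes is among the 7. The summed level of the 10 markers was 129 RPKM in ZIP10+ and 788 RPKM in ZIP10- cells, with Cd4 listed at 0 in ZIP10+ cells. Cd3e, an invariant chain of the T cell antigen receptor, stood at 13.7 RPKM in ZIP10+ and 171 RPKM in ZIP10- cells. Prdm1 stood at 0.872 RPKM in ZIP10+ and 1.64 RPKM in ZIP10- cells. It too passed the filter through the ZIP10- library alone, which fixed its direction. The interval of its ratio, 0.240 to 1.12, includes equality. Gata3 was higher in ZIP10+ cells as deposited, but its log2 ratio was -0.075 when scaled to all but the 50 most abundant genes and -0.14 without globin genes and Rn45s. The part of T cells in the values of Lef1, Gata3 and Prdm1 was not tested.

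Other members of the families were low. Dlx4, the neighbour of Dlx3 in the mouse genome, stood at 3.78 RPKM in ZIP10+ and 7.97 RPKM in ZIP10- cells, unlike Dlx3. Dlx1 stood at 1.39 RPKM in ZIP10+ and 1.57 RPKM in ZIP10- cells. Gata2, a factor of mast cells and blood progenitors, stood at 2.72 RPKM in ZIP10+ cells, with a listed 0 in ZIP10- cells. Beside it, 10 mast cell markers summed to 309 RPKM in ZIP10+ and 14.6 RPKM in ZIP10- cells. Of these markers 7 were measured and 6 were 2-fold or more higher. Among the 6, Fcer1a and Hdc passed the filter through the ZIP10+ library alone, as did Gata2, so the filter fixed their direction. Fcer1a, Ms4a2 and Tpsab1 were listed at 0 in ZIP10- cells and Tpsab1 in ZIP10+ cells too. The part of mast cells in the Gata2 value was not tested. Gata6, known for the sebaceous duct, stood at 1.92 RPKM in ZIP10+ and 0.616 RPKM in ZIP10- cells.

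Ovol2 stood at 2.83 RPKM in ZIP10+ and 0.730 RPKM in ZIP10- cells, so Ovol1 held 54.0% of the OVOL sum in ZIP10+ and 78.9% in ZIP10- cells. Foxn3 was above Foxn1, at 6.42 RPKM in ZIP10+ and 8.87 RPKM in ZIP10- cells, and Foxn2 stood at 0.809 RPKM in ZIP10+ and 1.58 RPKM in ZIP10- cells. Among the PRDM genes listed, Prdm4 stood at 2.42 RPKM in ZIP10+ and 1.19 RPKM in ZIP10- cells, and Prdm2 at 1.87 RPKM in ZIP10+ and 1.38 RPKM in ZIP10- cells. Both of these genes were above Prdm1 in ZIP10+ cells and below it in ZIP10- cells. On a 2000-base transcript 3 reads are worth 0.599 RPKM in the ZIP10+ and 0.614 RPKM in the ZIP10- library.

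**Figure D4:**
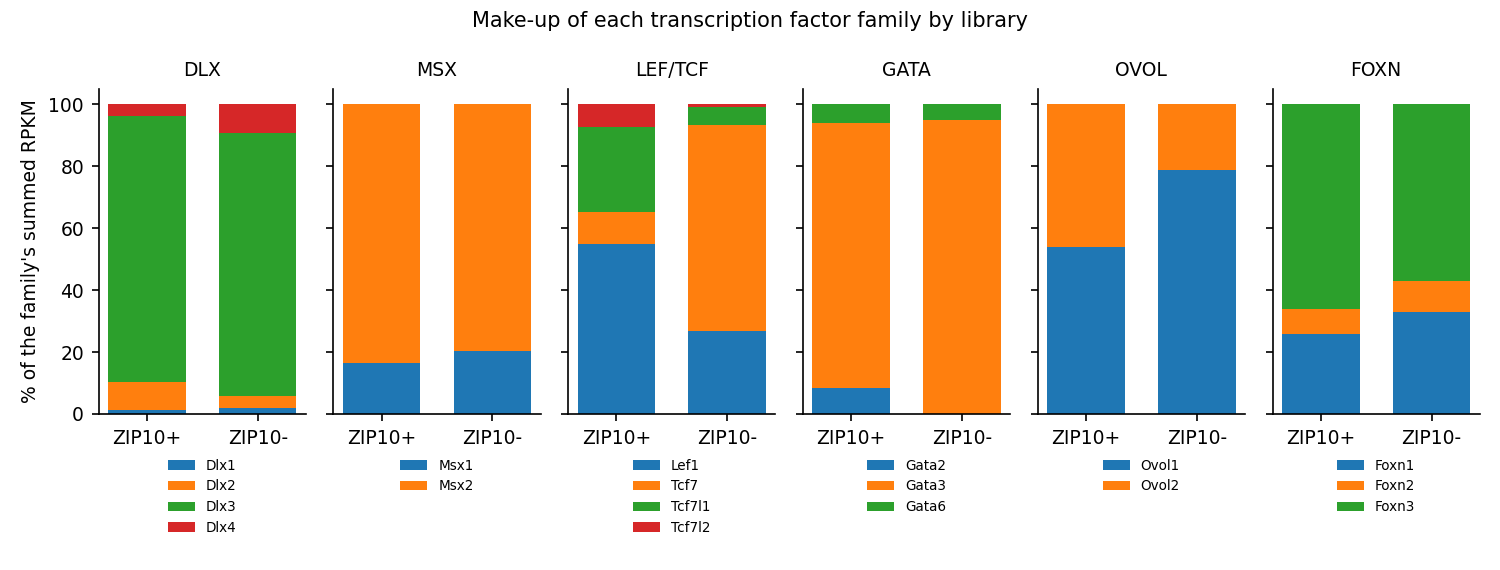
Share of each family's summed RPKM held by its members in the ZIP10+ (left bar) and ZIP10- library (right bar), stacked from the first gene of each legend at the bottom. Lef1 holds 55.0% of the LEF/TCF sum in ZIP10+ and 26.9% in ZIP10- cells, where Tcf7 holds 66.5%, while Dlx3 holds about the same share of the DLX sum in both.

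Other transcription factors of the follicle had a median close to that of all genes. Of 40 listed genes 38 were measured, of which 16 were 2-fold or more higher and none lower as deposited. Against the median gene 5 were higher and 2 lower by that much. Their median log2 ratio was 0.79 as deposited and 0.0084 relative to the median gene. Of the 38 genes 4 passed the filter through the ZIP10+ library alone. Barx2, a homeodomain factor, stood at 62.0 RPKM in ZIP10+ and 12.8 RPKM in ZIP10- cells, a log2 ratio of 1.26 relative to the median gene. Id3, a BMP-responsive inhibitor of helix-loop-helix factors, stood at 193 RPKM in ZIP10+ and 53.6 RPKM in ZIP10- cells, and Id2 at 60.5 RPKM in ZIP10+ and 34.1 RPKM in ZIP10- cells. Hoxc13, a hair shaft factor named here after its values were seen, stood at 10.1 RPKM in ZIP10+ and 5.29 RPKM in ZIP10- cells, a log2 ratio of -0.033 relative to the median gene. This places Hoxc13 at the median gene, between Msx2 above it and Foxn1, Lef1 and Dlx3 below it.

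Genes of the signals upstream of these factors were measured in 27 of 29 cases. Of these 8 were 2-fold or more higher and none lower as deposited. Against the median gene none was higher and 3 were lower by that much, and the list's median log2 ratio was -0.087. Of the 27 genes 2 passed the filter through the ZIP10+ library alone and 1 through the ZIP10- library alone. Ctnnb1, the beta-catenin gene, stood at 176 RPKM in ZIP10+ and 82.6 RPKM in ZIP10- cells, and Wnt5a at 33.2 RPKM in ZIP10+ and 17.1 RPKM in ZIP10- cells. Bmp4, a BMP ligand of the dermal papilla, stood at 73.7 RPKM in ZIP10+ and 37.5 RPKM in ZIP10- cells, a log2 ratio of -0.0027 relative to the median gene. Id1, a common BMP target, stood at 67.6 RPKM in ZIP10+ and 19.3 RPKM in ZIP10- cells, a log2 ratio of 0.81 relative to the median gene.

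Structural genes of the layers in which these factors act were counted without the 10 genes themselves. Of 15 measured shaft genes 3 were 2-fold or more higher and none lower as deposited. Against the median gene 2 were higher and 3 lower by that much. The hair keratin genes Krt31, Krt33a and Krt33b, named after their values were seen, stood at 14.8, 12.4 and 10.1 RPKM in ZIP10+ and 17.7, 24.6 and 16.7 RPKM in ZIP10- cells. Other shaft genes were higher in ZIP10+ cells as deposited. Krt35 stood at 109 RPKM in ZIP10+ against 59.7 RPKM in ZIP10- cells, S100a3, a calcium-binding protein gene, at 79.9 RPKM in ZIP10+ against 11.6 RPKM in ZIP10- cells, and Krt85 at 37.7 RPKM in ZIP10+ against 24.5 RPKM in ZIP10- cells. Reads may be divided between near-identical hair keratin genes, which makes each of these values uncertain.

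Of 11 measured inner root sheath genes without Gata3 and Cux1, 3 were 2-fold or more higher and none lower as deposited. Against the median gene 2 were higher and 1 lower by that much. Their median log2 ratio was 0.89 as deposited and -0.061 against the median gene. Krt74, among the higher genes, passed the filter through the ZIP10+ library alone. Krt26, the lower gene against the median gene, passed through the ZIP10- library alone. Among the sheath keratin genes, Krt71 stood at 296 RPKM in ZIP10+ against 93.3 RPKM in ZIP10- cells, and Krt28 at 179.9 RPKM in ZIP10+ against 95.3 RPKM in ZIP10- cells. Krt25 stood at 96.7 RPKM in ZIP10+ against 98.0 RPKM in ZIP10- cells, and Krt27 at 48.1 RPKM in ZIP10+ against 46.8 RPKM in ZIP10- cells, log2 ratios of -0.99 for Krt25 and -0.92 for Krt27 against the median gene. Mt4, a metallothionein of stratified epithelia, stood at 109 RPKM in ZIP10+ and 21.7 RPKM in ZIP10- cells, and Ctsc, the gene of cathepsin C, at 39.3 RPKM in ZIP10+ and 20.7 RPKM in ZIP10- cells. Of 15 measured sebaceous genes without Prdm1, 12 were 2-fold or more higher and 1 lower as deposited. Against the median gene 6 were higher and 1 lower by that much. Of all measured genes 44.1% were that much higher as deposited and 14.7% against the median gene. The list's median log2 ratio relative to the median gene was 0.61, and 0.45 over the 11 genes at 1 RPKM or more in both libraries. Pparg, Awat2 and Elovl3, among the higher genes, passed the filter through the ZIP10+ library alone. Awat1, the lower gene, and Prdm1, at -1.03, passed through the ZIP10- library alone. For these genes the direction as deposited follows from the filter. Plin2, a lipid droplet protein, stood at 44.0 RPKM in ZIP10+ and 8.09 RPKM in ZIP10- cells, and Soat1, a cholesterol esterifying enzyme, at 17.3 RPKM in ZIP10+ and 5.15 RPKM in ZIP10- cells. Pparg, a lipid regulator named after its values were seen, stood at 7.34 RPKM in ZIP10+ cells, with a listed 0 in ZIP10- cells.

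A mixed list of 10 keratinocyte markers held Krt5, Krt14, Krt15, Krt17, Krt75, Krt35, Krt85, Krt71, Cdh1 and Cdh3. It summed to 3628 RPKM in ZIP10+ and 1411 RPKM in ZIP10- cells, mostly from Krt5, Krt17, Krt14 and Krt15. The list's median log2 ratio was 0.12 relative to the median gene, with 7 genes above it and 3 below. The hair keratin genes Krt35 and Krt85 were among those below, at -0.11 and -0.35. This sum is therefore no measure of matrix cells alone. Markers of the dermal papilla and of fibroblasts had medians of -0.35 and -0.69 on that scale and melanocyte markers -0.39. Macrophage markers summed to 1142 RPKM in ZIP10+ and 50.4 RPKM in ZIP10- cells, and Lyz2, C1qa, C1qb, C1qc and Mrc1, which are 5 of the 10, were at a listed 0 in ZIP10- cells. Endothelial markers summed to 29.0 RPKM in ZIP10+ and 6.00 RPKM in ZIP10- cells, with Emcn at 0 in both groups and Tek, Tie1 and Vwf at 0 in ZIP10- cells. Of the measured markers 6 macrophage and 3 endothelial genes passed the filter through the ZIP10+ library alone, so no median is given for these lists. Erythroid markers summed to 16378 RPKM in ZIP10+ and 283754 RPKM in ZIP10- cells. Lef1, Msx1 and Msx2 are also known from dermal cells, and the part of dermal cells in their values was not tested.

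**Figure D5:**
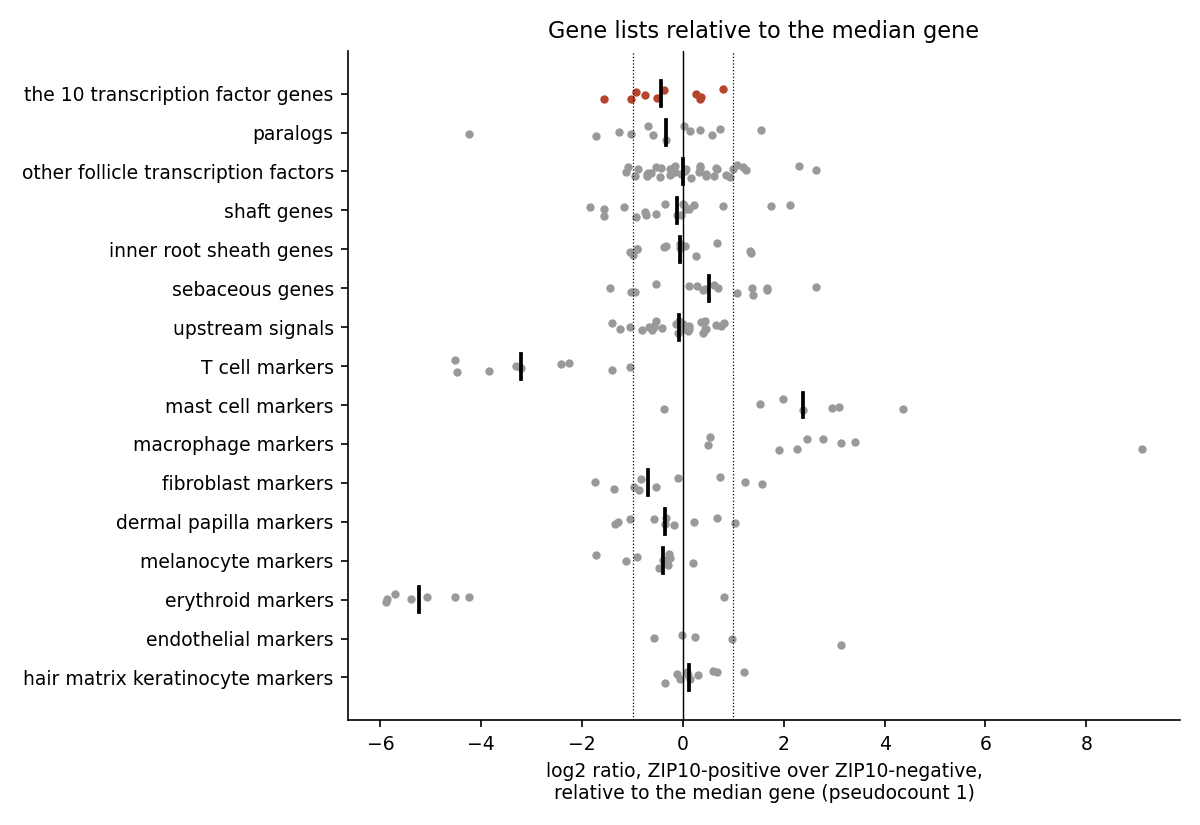
Log2 ratio of ZIP10+ over ZIP10- values relative to the median gene (pseudocount of 1) for each measured member of the gene lists, with the list median as a vertical bar (none for macrophage and endothelial markers), 0 as a solid line and 2-fold as dotted lines. The 10 transcription factor genes (red) run from -1.56 for Foxn1 to 0.78 for Msx2, with a median of -0.45, and none lies past the upper 2-fold line. The list labelled hair matrix keratinocyte markers is the mixed list that includes Krt5, Krt14 and Krt15.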

How the data were processed

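Polyadenylated RNA of ZIP10-positive and ZIP10-negative skin cells was compared, 1 library each. The authors deposited RPKM values, 1 per gene symbol and library. Tools named in the submitters' processing notes are cutadapt, TopHat and Cufflinks, with build mm9; versions, annotation and use of strand are not given there. Without strand, reads of antisense genes cannot be told apart, and GENCODE vM21 places other genes over exons of Lef1, Gata3, Ovol1 and Cux1.

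The genes and lists were chosen with earlier results of these data known. All 10 genes are named, with paralogs at 1 RPKM or more and up to 6 of the most abundant genes of other lists. Some genes under this rule are not printed. Log2 ratios, counts and medians are log2((positive + 1)/(negative + 1)), which understates the change of low genes. Ratios printed without log2, their intervals and their plot use no pseudocount. The filter was 1 RPKM in a library, and 2-fold counts are by size alone. For a gene that passed through 1 library alone, the direction as deposited follows from the filter. The shift of the median gene, over 9620 genes at 1 RPKM in both libraries, was divided between the libraries.

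Read numbers were estimated after the data were seen. Among 1389 genes above 0 and up to 1 RPKM in each library, 64.6% had a ratio of whole numbers up to 20 times 0.975, at a tolerance of 0.0012%. Depth is the most frequent estimate over 247 genes annotated with 1 transcript, and 29.1% of them fell within 1.4% of it, with an assumed length offset of 199 bases. For 7 of the 10 genes a whole-number ratio lay within 5% of the length estimate and was used. Msx2, Dlx3 and Cux1 rest on annotated lengths of another annotation. Ratio intervals are exact binomial (Clopper-Pearson) and level intervals exact Poisson, at 95%. Intervals for quotients of gene ratios are normal approximations. Intervals relative to the median gene treat its shift as fixed. Reads carry no molecular identifiers.

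RefSeq promoter windows were found for 8 of the 10 genes. Python 3.11.15, pandas 2.3.3, numpy 2.4.6, scipy 1.17.1 and matplotlib 3.10.9 were used, and the steps were tested on simulated data.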

Additional observations from a re-analysis of the deposited data

How the results depend on the processing

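With 1 library per group no library could be left out. No paired analysis was possible because each group has 1 library and no test was made. Leaving out the filter changed no count or median of the 10 genes. With 1 RPKM required in both libraries 9 genes remained, the medians were 0.56 as deposited and -0.37 relative to the median gene, and 1 gene was 2-fold or more lower relative to it, since Prdm1 left the list. A pseudocount of 0.1 gave 1 gene lower as deposited, Foxn1, and medians of 0.43 as deposited and -0.53 relative to the median gene. The share of all genes past 2-fold was not computed for this pseudocount or for 1 RPKM in both libraries. The counts of 1 gene in these settings thus have no background beside them. A pseudocount of 5 gave 1 gene higher as deposited and 0 lower relative to the median gene, with medians of 0.34 and -0.29. Scaling by the sum of all but the 50 most abundant genes and scaling without globin genes and Rn45s moved the zero point by 1.32 and 1.39 on the log2 scale. Each gave 0 genes higher and 4 lower, with medians of -0.74 and -0.80, beside -0.18 and -0.24 over all genes, of which 9.74% and 8.99% were higher and 17.5% and 19.2% lower by that much. Gata3, 2-fold or more higher as deposited, stood at -0.075 and -0.14 under these scalings, and Dlx2 at -0.013 without globin genes and Rn45s. The cause was not tested. Depth limits Prdm1, Foxn1, Ovol1 and Msx1 most, which rest on between 12 and 42 reads per library.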
